A study of Mus musculus with 3 samples.

Results

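Akp3, Alpi and Tmprss15 are brush border enzyme genes of the small intestine, and they were followed here in single-cell RNA sequencing (scRNA-seq) of mouse intestinal epithelium with and without Arid3a, an AT-rich DNA binding transcription factor. They are 3 of the 51912 genes in the feature lists and were matched by symbol. They were selected on their CPM values (UMIs of a gene scaled to all UMIs of the same cells) in these same libraries, across cell clusters and between Arid3a cKO and WT, so all their values are given as a description and no test was run. Arid3a cKO mice carried VillinCreERT2 and floxed Arid3a (Arid3a fl/fl), and the control mice (WT) carried VillinCreERT2 without the floxed gene. In both genotypes tamoxifen was given at 8 to 10 weeks of age and tissue was taken 1 month after the first injection, so both were exposed to the recombinase and to the drug. The Villin promoter drives the recombinase in intestinal epithelium, where deletion follows tamoxifen and need not reach each cell. According to the study's methods the crypts came from the proximal jejunum. They were dissociated and sorted for DAPI-, Epcam+, CD45- and CD31- cells before 10x Genomics 3′ libraries were made. The 3 libraries analysed were those of Arid3a cKO replicates 1 and 2 (cKO 1 and cKO 2) and of WT, and with 1 WT library the spread between control mice is not known.

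Intestinal alkaline phosphatases are anchored in the apical membrane of enterocytes, the absorptive cells of the villus. They remove phosphate from lipopolysaccharide, from nucleotides and from other luminal substrates, and they are classical markers of enterocyte maturation. Alpi and Akp3 encode intestinal alkaline phosphatases, and the Akp3 enzyme is known from the duodenum. Tmprss15 encodes enteropeptidase, the transmembrane serine protease that converts pancreatic trypsinogen to trypsin and thereby starts protein digestion in the proximal small intestine. All 3 proteins therefore work at the luminal face of the same cell type.

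The genes lie at 2 loci in GRCm38, with positions taken from the GENCODE M21 annotation. Alpi spans chr1:87098002-87101606 on the minus strand in 11 exons and Akp3 spans chr1:87124973-87127912 on the plus strand in 11 exons, with 23366 bases between them. Tmprss15 spans chr16:78953008-79091097 on the minus strand in 28 exons. The coding sequences of Akp3 and Alpi were 84.0% identical over 1639 aligned bases, and their longest exact match was 68 bases. They shared 35 windows of 50 bases and no window of 90 bases, so a short read from a shared stretch could fit either gene. The annotated Akp3 transcript stops at the end of its coding sequence, whereas the RefSeq gene runs 816 bases further at the 3′ end. Alpi and Tmprss15 end at the same base in both annotations. The reads of a 3′ library fall near that end, and the share of Akp3 reads that were counted was not tested.

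The promoters are shown because the members share a cell type but lie at different loci. Each is the RefSeq window of 250 bases before to 50 bases after the gene start in GRCm38.p6, printed 5′ to 3′ on the strand of the gene, at chr1:87124704-87125003 for Akp3, chr1:87101557-87101856 for Alpi and chr16:79091048-79091347 for Tmprss15. Capitals mark every match to the searched letters on either strand.
Akp3: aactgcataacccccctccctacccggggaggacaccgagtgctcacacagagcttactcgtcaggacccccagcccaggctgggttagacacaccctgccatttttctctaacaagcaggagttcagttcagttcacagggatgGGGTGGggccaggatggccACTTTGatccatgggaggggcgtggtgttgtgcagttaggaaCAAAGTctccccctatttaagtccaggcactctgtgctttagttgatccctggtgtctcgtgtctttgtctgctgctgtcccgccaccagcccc
Alpi: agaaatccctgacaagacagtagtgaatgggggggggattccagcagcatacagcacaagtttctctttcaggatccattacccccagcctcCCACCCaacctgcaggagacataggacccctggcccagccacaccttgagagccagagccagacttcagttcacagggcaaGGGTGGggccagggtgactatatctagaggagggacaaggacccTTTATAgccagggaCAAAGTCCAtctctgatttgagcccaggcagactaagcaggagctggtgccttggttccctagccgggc
Tmprss15: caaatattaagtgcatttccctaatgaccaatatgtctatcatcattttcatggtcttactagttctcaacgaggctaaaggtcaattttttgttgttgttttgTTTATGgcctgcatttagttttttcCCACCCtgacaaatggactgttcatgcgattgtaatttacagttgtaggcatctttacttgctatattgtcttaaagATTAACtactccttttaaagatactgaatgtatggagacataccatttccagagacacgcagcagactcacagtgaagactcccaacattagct
The window of Alpi held the full HNF4 letters CAAAGTCCA 19 bases before the start site, which 0.475% of the 32851 promoter windows hold on either strand. The core letters CAAAGT, which are part of the full HNF4 letters, were found in Akp3 at 44 bases and, on the opposite strand, at 86 bases before the start site, and 14.4% of windows hold them. Tmprss15 held neither, but had the shorter HNF1 letters GTTAAT on the opposite strand at 44 bases (7.1% of windows) and the CDX letters TTTATG at 146 bases before the start (11.9%). The KLF letters CCACCC, which 31.5% of windows hold, occurred in all 3 promoters. Alpi also carried TATAAA on the opposite strand at 33 bases before the start (13.6%). The GATA letters AGATAA (11.2% of windows), the ARID3A letters ATTAAA (13.9%) and the full HNF1 consensus (0.00913%) were in none of the 3 windows. The longest run shared by the Akp3 and Alpi promoters had 14 bases, ttcagttcacaggg. Matches describe letters in these windows and say nothing about whether a factor is bound.

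Cells with at least 1000 detected genes and at most 15% mitochondrial unique molecular identifiers (UMIs, the tags that mark single captured transcripts) were kept. They numbered 2134 in cKO 1, 1550 in cKO 2 and 1910 in WT, with medians of 29895 to 35764 UMIs per cell. These were 31.2%, 22.5% and 16.2% of 6845, 6893 and 11816 barcodes, so the kept share was lowest in WT. Over the mitochondrial limit were 66.4%, 75.6% and 79.2% of barcodes. The part of this unequal loss in the differences between libraries was not tested. Arid3a itself had 42, 52 and 161 UMIs in the kept cells of cKO 1, cKO 2 and WT, or 0.592, 0.894 and 2.57 CPM, that is UMIs of the gene per 1000000 UMIs of the cells considered. At most 2 kept barcodes were shared between any pair of libraries. The cells fell into 13 clusters, and 4 of them (0, 3, 6 and 11) were enterocyte-like by markers that do not include the members, with 831, 604 and 697 cells in the order given above. Clusters 0 and 6 were named from their top genes, and clusters 3 and 11 from the share of enterocyte markers raised in them. All 14 enterocyte markers were detected in the enterocyte-like cells of each library, but these markers had also named the clusters. All 8 goblet and all 8 Paneth markers were detected in these cells too, at far lower summed CPM. In these cells Arid3a had 12, 24 and 47 UMIs in cKO 1, cKO 2 and WT, or 0.451, 1.14 and 2.21 CPM. The exact Poisson interval of cKO 2 (0.734 to 1.70 CPM) overlapped that of WT (1.63 to 2.94 CPM). The interval of cKO 1 (0.233 to 0.788 CPM) lay below that of WT. Brunner's gland markers (Muc6 and Tff2), which mark the first stretch of the duodenum, summed to 0.282 CPM in cKO 1, 176 CPM in cKO 2 and 1.10 CPM in WT over all kept cells, so cKO 2 stood apart.

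Akp3 was higher in both Arid3a cKO libraries than in WT. In enterocyte-like cells it reached 69.7 CPM in cKO 1 (95% exact Poisson interval 66.6 to 73.0, 1854 UMIs) and 108 CPM in cKO 2 (103.4 to 112.3, 2259 UMIs). WT had 27.8 CPM (25.6 to 30.2, 591 UMIs). Both cKO values lay above WT by more than the counting error, at 2.51-fold and 3.87-fold, and they also differed from each other. On the scale of log2(CPM + 5) the differences from WT were 1.19 and 1.78, with a mean of 1.48 and an SD of 0.42 between the cKO libraries. Over all kept cells the order was the same, with 29.4, 44.5 and 11.5 CPM in cKO 1, cKO 2 and WT. Intervals cover counting error of independent UMIs only and say nothing about the spread between cells or mice. The 84, 61 and 70 enterocyte-like cells with the most Akp3 held 71.7%, 58.5% and 78.2% of its UMIs in cKO 1, cKO 2 and WT. The intervals do not cover this clumping.

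Alpi, by contrast, differed little between genotypes. Its level in enterocyte-like cells was 847 CPM in cKO 1 (836 to 858, 22518 UMIs), 1025 CPM in cKO 2 (1011 to 1039, 21484 UMIs) and 793 CPM in WT (781 to 805, 16842 UMIs). The cKO values were above WT by 0.09 and 0.37 on the log2(CPM + 5) scale. The gap between cKO 1 and cKO 2 was wider than that between cKO 1 and WT. Over all kept cells Alpi stood at 393, 461 and 347 CPM.

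Tmprss15, the enteropeptidase gene, did not separate the genotypes in the enterocyte-like cells that were kept. It had 12.1 CPM in cKO 1 (10.8 to 13.5, 321 UMIs), 22.8 CPM in cKO 2 (20.8 to 24.9, 478 UMIs) and 13.3 CPM in WT (11.8 to 14.9, 282 UMIs). cKO 1 overlapped WT, and cKO 2 alone was higher, so that the log2(CPM + 5) differences were -0.10 and 0.61. The higher library was the one with Brunner's gland markers, and their part in the Tmprss15 value was not tested. Barcodes that were not kept had Tmprss15 at 28.8 CPM in cKO 1, 61.2 CPM in cKO 2 and 21.9 CPM in WT. Both cKO libraries were above WT there.

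The other alkaline phosphatase genes were low or not detected in enterocyte-like cells. Alppl2, which lies beside Alpi at chr1:87086694-87089928, had 43, 40 and 21 UMIs in cKO 1, cKO 2 and WT, or 1.62, 1.91 and 0.989 CPM. Alpl, the tissue-nonspecific enzyme on chromosome 4, had 0 UMIs in all 3 libraries, where 3 UMIs, taken as the floor of detection, would be 0.113, 0.143 and 0.141 CPM.

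The members were unevenly spread over the enterocyte-like clusters. Cluster 6, with 149, 126 and 104 cells, was the highest for all 3 members, and its leading genes by fold over the other cells included S100g, Akp3, Gm2061, Tmprss15, Sult6b2 and Slc40a1, although neither Akp3 nor Tmprss15 was used for clustering. S100g encodes a calcium-binding protein and Slc40a1 the iron exporter ferroportin, both known from the proximal intestine. Akp3 in this cluster was 293, 327 and 129 CPM in cKO 1, cKO 2 and WT, and both cKO libraries were above WT (log2 differences 1.15 and 1.31). Alpi was 1877, 1950.5 and 1778 CPM there, with differences of 0.08 and 0.13. Tmprss15 was 41.5, 63.1 and 48.0 CPM, with WT between the cKO libraries.

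The other enterocyte-like clusters had less of each member. In cluster 0, led by Dnase1, Cubn and Slc5a12, Akp3 was 13.1 CPM in cKO 1, 43.8 CPM in cKO 2 and 11.8 CPM in WT, so cKO 1 was close to WT. Alpi was 626, 788 and 658 CPM in the same cells. In cluster 3, led by Ms4a18, Akp3 was 20.8, 51.9 and 7.22 CPM and both cKO libraries were above WT. Tmprss15 was low in cluster 3, at 1.53, 4.03 and 0.902 CPM, although Alpi there was 587, 752 and 542 CPM. Cluster 11, a small cluster led by the interferon-response genes Ifit3 and Isg15, had Akp3 at 71.3, 139.9 and 27.5 CPM from 51, 67 and 15 UMIs. With cluster 6 left out, Akp3 still differed from WT by 0.63 and 1.84.

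Ordered by the mean of the libraries, Alpi was highest in cluster 6 (1868 CPM), and its range over libraries did not overlap that of the next, cluster 11 (999 CPM). Tmprss15 also had its highest level in cluster 6 (50.9 CPM), apart from cluster 11 (31.0 CPM). For Akp3 the ranges of cluster 6 (249.9 CPM) and cluster 11 (79.6 CPM) overlapped, since cKO 2 in cluster 11 was above WT in cluster 6. At the other end, Paneth-like cells had Akp3 at 0.834, 1.18 and 1.23 CPM, from 3, 3 and 4 UMIs. These counts lay at or near the floor of 3 UMIs. Alpi in the Paneth-like cells was 5.84, 13.0 and 38.6 CPM. Cluster 4, an unnamed cluster led by Ccl20, Edn2 and Bmp3, held Alpi at 312, 349 and 294 CPM and Akp3 at 9.62, 10.3 and 3.27 CPM.

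**Figure D1:**
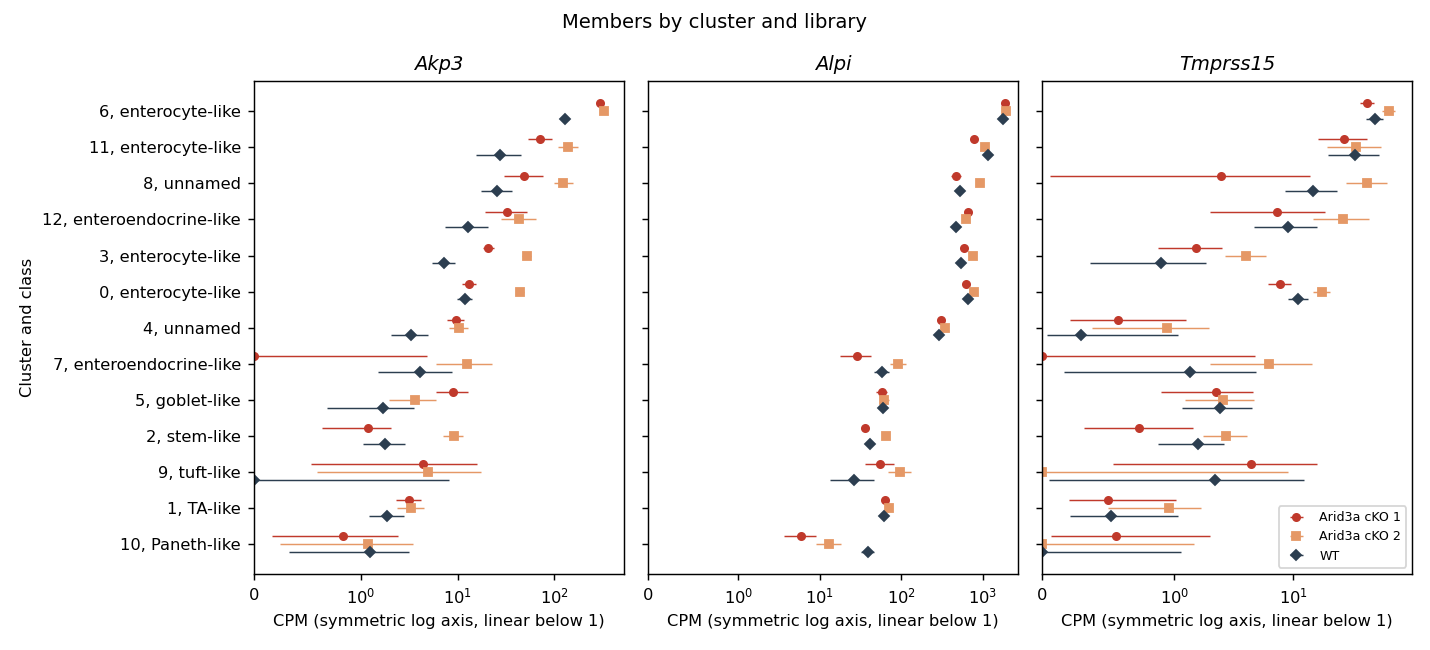
Levels of Akp3, Alpi and Tmprss15 in CPM (symmetric log axis) in each cluster, with a point per library and 95% exact Poisson intervals. Cluster 6 is at the top for all 3 genes, and for Akp3 its cKO points (293 and 327 CPM) lie to the right of WT (129 CPM).

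Cluster 6 held more than any other cluster of the Akp3 UMIs. It took 69.6%, 55.3% and 56.2% of all Akp3 UMIs of kept cells in cKO 1, cKO 2 and WT, against 33.2%, 31.8% and 25.6% of the Alpi UMIs. For Tmprss15 the shares were 57.3%, 47.8% and 43.1%. The cluster made up 17.9% of enterocyte-like cells in cKO 1 (exact binomial interval 15.4 to 20.7), 20.9% in cKO 2 (17.7 to 24.3) and 14.9% in WT (12.4 to 17.8), and these intervals overlapped. Of all kept cells it made up 6.98% (5.94 to 8.15), 8.13% (6.82 to 9.60) and 5.45% (4.47 to 6.56), where the interval of cKO 2 lay above that of WT. Both sets of intervals treat cells as independent and do not cover the spread between mice. When the clusters were weighted as in WT, Akp3 was 58.6, 90.9 and 27.8 CPM, and both cKO libraries stayed above WT.

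Relative to Alpi, too, Akp3 was higher in both cKO libraries. Enterocyte-like cells held 8.23 Akp3 UMIs per 100 Alpi UMIs in cKO 1, 10.5 in cKO 2 and 3.51 in WT. In cluster 6 the numbers were 15.6, 16.8 and 7.27 per 100. In cluster 3 they were 3.54, 6.90 and 1.33, and in cluster 0 they were 2.09, 5.56 and 1.80, where cKO 1 was close to WT. Since the ratio sets genes of the same cells side by side, it does not depend on the total count of a library.

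More cells carried Akp3 in the cKO libraries, and those that did carried more. To compare cells at equal depth, each was thinned to 24500 UMIs, which left out 142, 116 and 163 shallower enterocyte-like cells in cKO 1, cKO 2 and WT. At least 1 Akp3 UMI was found in 33.4% of 689 cells (29.9 to 37.0) in cKO 1, 49.4% of 488 cells (44.9 to 53.9) in cKO 2 and 21.3% of 534 cells (17.9 to 25.1) in WT. The intervals of the 3 libraries did not overlap, those of cKO 1 and cKO 2 included. They treat cells as independent and do not cover the spread between mice. Cells with Akp3 held a mean of 4.92, 5.08 and 2.89 Akp3 UMIs. Unthinned shares were 36.5%, 52.8% and 24.5%. In stem-like cells, which are not expected to use the gene, Akp3 was found in 3.96%, 6.38% and 3.11% of cells thinned to the same depth (median depths before thinning were 31814 to 36158 UMIs in stem-like and 32863 to 38404 UMIs in enterocyte-like cells). Alpi was found in 97.8%, 99.2% and 98.9% of the thinned enterocyte-like cells, and in 37.4%, 31.9% and 37.8% of the stem-like ones. Tmprss15 was found in 13.4%, 22.3% and 14.8% of enterocyte-like and in 1.32%, 4.79% and 3.11% of stem-like cells.

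Within cluster 6 the Akp3 UMIs per cell were higher in both cKO libraries than in WT, but the distributions overlapped. Among 128, 100 and 82 thinned cells, the median was 5 Akp3 UMIs in cKO 1, 6 in cKO 2 and 2 in WT. Cells with at least 10 Akp3 UMIs were 31.3%, 25% and 3.66%, and cells with at least 4 were 55.5%, 68% and 28.05%. The Alpi medians were 46, 42 and 42, where cKO 2 equalled WT. The share of cells with a Tmprss15 UMI was 43.0%, 55.0% and 42.7%, where cKO 1 was close to WT. Cells are not replicates, and these values do not cover the spread between mice.

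**Figure D2:**
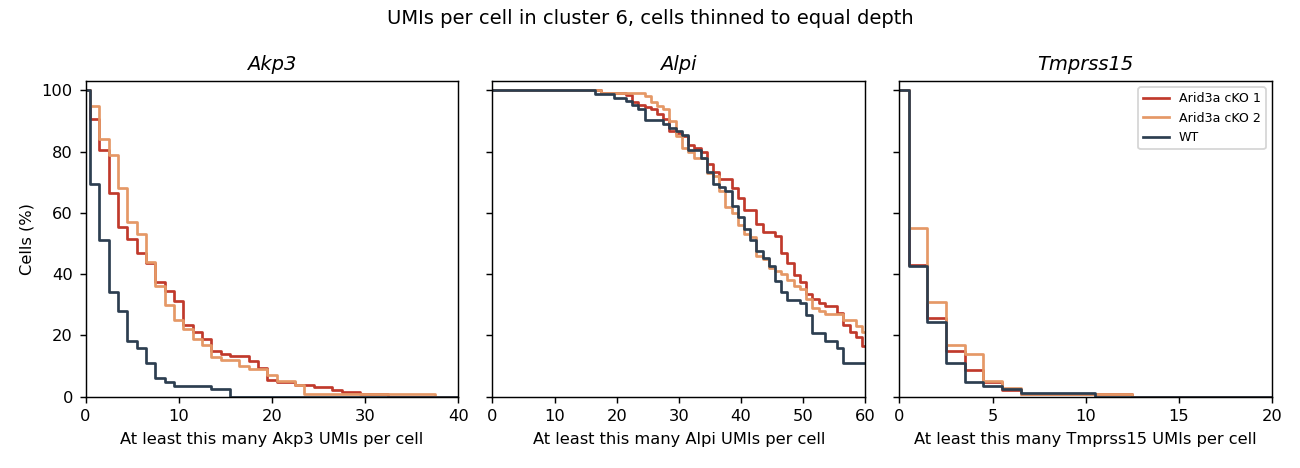
Percent of cluster 6 cells (y axis) with at least the number of UMIs on the x axis, for each member and library, with cells thinned to equal depth. The Akp3 curves of both cKO libraries (medians 5 and 6) run above that of WT (median 2), whereas the Alpi and Tmprss15 curves lie close together.

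In every library Akp3 was detected in a larger share of the cells with Tmprss15 than of the cells without it. Among thinned enterocyte-like cells with Tmprss15, 70.7% in cKO 1, 76.1% in cKO 2 and 51.9% in WT also had Akp3, against 27.6%, 41.7% and 16.0% of those without Tmprss15. The reverse held too, as Tmprss15 was in 28.3%, 34.4% and 36.0% of the cells with Akp3 and in 5.88%, 10.5% and 9.05% of the cells without. Cells of a library are not replicates, and both genes peak in cluster 6, so these are descriptions of the libraries.

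All 3 members were low in cells near the stem end and high near the enterocyte end. Stem-, transit-amplifying- (TA-) and enterocyte-like cells were put in 5 bins of a score (enterocyte minus stem markers). Akp3 was at most 2.00 CPM in bins 1 and 2 of any library. In bin 3 it was 28.7, 63.6 and 15.3 CPM in cKO 1, cKO 2 and WT, in bin 4 it was 91.3, 95.8 and 27.6 CPM, and in bin 5 it was 77.8, 122.3 and 36.8 CPM. Both cKO libraries were above WT in bins 3, 4 and 5. The markers of the score also named the classes, so bins 1 and 2 held no enterocyte-like cells and bins 4 and 5 only these. Unnamed cluster 4 was left out. With it included and the bins set anew, Akp3 in bin 3 was 16.5, 39.0 and 6.16 CPM in cKO 1, cKO 2 and WT. Alpi rose to 550, 609 and 464 CPM in bin 3 and to 887, 1084 and 897 CPM in bin 5, where cKO 1 no longer exceeded WT. Tmprss15 had the largest part of its level in bin 5, with 3.19, 7.76 and 4.33 CPM in bin 3 and 21.3, 36.4 and 28.7 CPM in bin 5. The mean bin, weighted by level, was 4.21, 4.19 and 4.22 for Akp3, 4.09, 4.13 and 4.15 for Alpi and 4.45, 4.43 and 4.51 for Tmprss15, and the small differences between genotypes changed sign under other settings for each of the 3 genes.

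**Figure D3:**
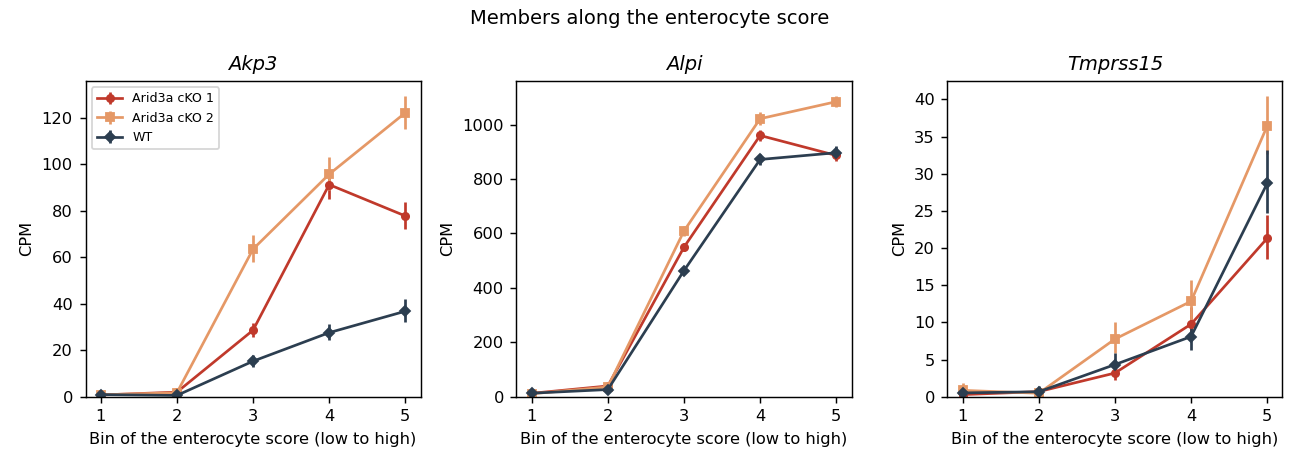
CPM of each member (y axis, linear) in 5 bins of the enterocyte score (x axis, low to high), with a line per library and 95% exact Poisson intervals. The Akp3 lines of the cKO libraries leave that of WT (15.3 CPM) from bin 3 onwards, while the Alpi lines stay close and those of Tmprss15 cross.

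Akp3 and Tmprss15 were among the genes most like each other over clusters, and Alpi had other nearest genes. Pearson correlations of log2(CPM + 5) were taken over 34 library by cluster units that share libraries and depth, for 9555 genes, and are descriptive. The members were selected on their values across clusters in these same libraries, and that choice favours a likeness between them. For Akp3 the nearest were Gm2061 (0.93), the manganese transporter Slc30a10 (0.91), Slc37a2 (0.90), Tmprss15 (0.89) and the folate transporter Slc46a1 (0.88). For Tmprss15 they were Gm2061 (0.92), Akp3 (0.89), Slc7a15 (0.87), Slc4a7 (0.87) and Gm5485 (0.85). Alpi instead was nearest to the chloride and bicarbonate exchanger Slc26a6 (0.99), Slc25a45, Adh6a, Papss2 and Ces2c (each 0.97). Akp3 and Alpi correlated at 0.86, which made Alpi number 11 in the list of Akp3 and Akp3 number 350 in that of Alpi.

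Changes of the size seen for Akp3 were rare in these cells. Of 4730 genes with a mean of at least 20 CPM in enterocyte-like cells, 5 (0.106%) were higher by at least 1 on the log2(CPM + 5) scale in both cKO libraries, and 13 (0.275%) were lower. Akp3 was among the 5, beside Gm28438, Mir6236, Wdfy1 and Sco2, which were listed after their values were seen. Over all kept cells 4 of 5336 genes (0.075%), and in cluster 6 alone 6 of 4530 genes (0.132%), were higher by the same rule. Since Akp3 was chosen for this contrast, these shares only describe how many genes moved. Alpi was not among them, and Tmprss15, with a mean under 20 CPM, was not counted.

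Other digestive enzyme genes of the brush border differed from WT by less than Akp3. Of 12 measured brush border peptidases none reached 0.5 in both cKO libraries, a size that 30 genes (0.634%) reached upwards and 44 (0.93%) downwards, and their median was -0.14. Below WT in both libraries were 9 of the 12, and above WT in both were 2, the meprin gene Mep1a (0.24 and 0.16) and the neprilysin gene Mme (0.10 and 0.04). All 4 disaccharidase genes (Sis, Mgam, Lct and Treh) stayed within this size, with a median of -0.07. Over all 4730 measured genes the median was -0.013, with 1982 (41.9%) below WT and 1670 (35.3%) above WT in both libraries. The list of membrane serine proteases, the kind of enzyme that enteropeptidase is, and their inhibitors had 5 measured members of 6 and none at 0.5. The substrates of enteropeptidase are made in the pancreas, and the trypsinogen genes Prss1, Prss2, Prss3, Try4, Try5 and Try10 had 0 to 3 UMIs per library in enterocyte-like cells. Of 10 measured factors that are known to act on alkaline phosphatase or enterocyte genes, none reached 0.5. None of the 5 genes of lipopolysaccharide recognition reached a mean of 20 CPM. Phosphate transport had 2 measured genes of 4, neither at 0.5.

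Of the duodenal and proximal genes, S100g and Pdx1 were higher by at least 0.5 in both cKO libraries over all enterocyte-like cells. S100g, the calcium-binding protein, had 2270.4 CPM in cKO 1, 3195 CPM in cKO 2 and 1238 CPM in WT in enterocyte-like cells, and both cKO libraries were above WT by 0.87 and 1.36. Pdx1, the homeobox factor of the duodenum and pancreas, had 36.1, 35.5 and 19.6 CPM, above WT by 0.74 and 0.72. They were 2 of 5 measured genes of the 8 in the duodenal and proximal list, whose median was 0.53, against 0.634% of all measured genes that reached 0.5 upwards. Of the other measured genes, the differences were 0.44 and 0.61 for Slc40a1 and 0.02 and 0.09 for the factor Onecut2. The iron importer Slc11a2 was below WT in both, at -0.13 and -0.28. Within the enterocyte-like cluster led by S100g and Akp3, the differences were 0.55 and 0.95 for S100g and 0.59 and 0.44 for Pdx1. Pdx1 thus did not reach 0.5 in both there. Slc40a1 differed by 0.21 and 0.18 in that cluster, Onecut2 by -0.07 and -0.05, and Slc11a2 by -0.26 and -0.57. The part of the share of this cluster in the pooled differences was not tested. In all enterocyte-like cells and below 20 CPM, the calcium channel Trpv6 had 5, 9 and 1 UMIs. Cybrd1, the duodenal ferric reductase, had 14, 47 and 2 UMIs. Gkn3, a gene of the stomach and proximal duodenum, had 19, 40 and 2 UMIs. The 4 measured ileal and distal genes were each below WT in both cKO libraries, as were 41.9% of all measured genes, with a median of -0.15 and none at 0.5. Brunner's gland markers summed to 0.0752, 6.82 and 0.0471 CPM in the same cells. The stretch of intestine that a library came from and the genotype cannot be told apart with 1 WT library, and the part of these markers in the Akp3 difference was not tested. Goblet markers summed to 260, 460 and 908 CPM in enterocyte-like cells, with the highest sum in WT, and their part was not tested either, while immune markers summed to less than 0.3 CPM in each library.

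**Figure D4:**
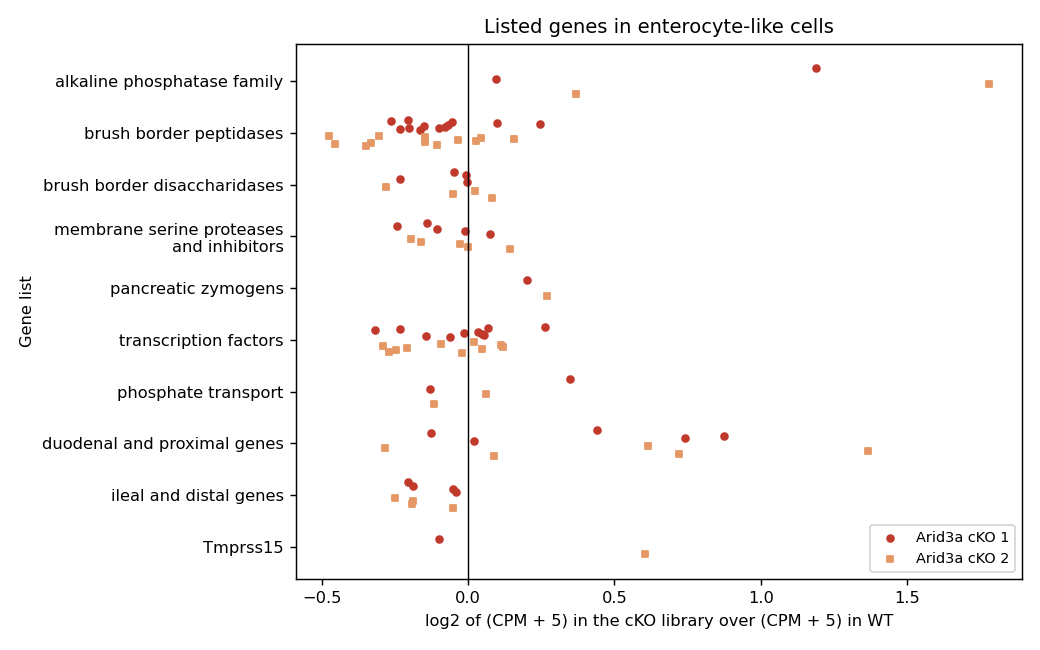
Difference from WT on the log2(CPM + 5) scale (x axis) for each measured gene of the lists and for Tmprss15 in enterocyte-like cells, with a circle for cKO 1 and a square for cKO 2. Akp3 (1.19 and 1.78) and S100g (0.87 and 1.36) lie to the right, and the peptidases, disaccharidases and distal genes lie near 0.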

How the data were processed

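The data are 10x Genomics 3′ libraries, 2 of Arid3a cKO and 1 of WT, grouped by the genotype in the labels. The authors counted reads with Cell Ranger 5.0.0, per the file headers, and deposited them as unnormalised UMI counts for each barcode. The processing notes name GRCh38 and hg19, which are human builds, and the mouse build of the counting is not given in the sources used here. Of the feature identifiers, 51633 (99.5%) are in GENCODE M21.

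From these counts, cells with at least 1000 genes and at most 15% mitochondrial UMIs were kept (5594 cells). Seurat 5.3.0 in R 4.3.3 integrated the libraries (3000 features, 30 components, resolution 0.3), with the members, Arid3a and all listed genes left out. Clusters were named from their markers by a scoring rule set after the clusters were seen. Doublets were kept; Scrublet in scanpy 1.11.5 marked 110 cells (1.97%).

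UMIs were summed per library and class, given as CPM with 95% exact Poisson intervals, and compared as log2(CPM + 5). Shares have exact binomial intervals (scipy 1.17.1). The members and lists were chosen with earlier results of these data known, and cells are not replicates, so no test was run. The members, the alkaline phosphatase family, Arid3a, up to 4 listed genes per direction at 0.5 or more in both cKO libraries, and the 5 genes most like each member were named by rule. Other genes were named after their values were seen. The calculations were tested on simulated data. Alternatives included TMM (edgeR 4.0.16), other clusterings and other cell limits.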

Additional observations from a re-analysis of the deposited data

Results flagged for a closer look

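The Alpi difference had opposite signs in different clusters. Its mean log2(CPM + 5) difference from WT was 0.10 in cluster 1, 0.29 in cluster 3, 0.16 in cluster 4, 0.11 in cluster 6, 1.33 in cluster 9 (25, 40 and 12 UMIs in cKO 1, cKO 2 and WT) and 0.44 in cluster 12, with both cKO libraries above WT in each. It was -1.64 in the Paneth-like cluster 10, from 21, 33 and 126 UMIs, and -0.34 in cluster 11, with both cKO libraries below WT. In clusters 0, 2, 5, 7 and 8 cKO 1 was below WT and cKO 2 above it. The difference between clusters was not tested.

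The barcodes that were not kept carried member transcripts as well. Akp3 was 104 CPM in cKO 1, 188 CPM in cKO 2 and 36.4 CPM in WT, Alpi was 536, 751 and 412 CPM, and Tmprss15 was 28.8, 61.2 and 21.9 CPM. They held 63.5%, 72.6% and 77.1% of all Akp3 UMIs of the libraries, 40.2%, 50.5% and 55.8% of the Alpi UMIs and 73.8%, 79.4% and 80.7% of the Tmprss15 UMIs. The limits on cells thus set aside most transcripts of Akp3 and Tmprss15 in every library, and of Alpi in cKO 2 and WT. Both cKO libraries were above WT in these barcodes for all 3 genes.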

How the results depend on the processing

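Of 134 alternative values for 10 results under 23 settings, 7 turned sign. Of these, 4 concern the mean bin and 3 arose when a cKO library was left out, namely Tmprss15 without cKO 2 (log2 difference -0.10 and share -1.44 points, from 0.25 and 3.05) and the share for Alpi without cKO 1 (0.30 points, from -0.37). Another 8 values moved by more than the spread between the cKO libraries or, for gene counts, by over 1.5 times. Some alternatives were chosen after seeing the data. The mean Akp3 difference was 1.19 to 1.78 over 17 alternatives, with both cKO libraries above WT in 15 of the 15 that keep both. For Alpi it was 0.024 to 0.40, with both above WT in 13 of 15, and it was 0.024 with equal weight for each enterocyte-like cluster. For Tmprss15 it was -0.10 to 0.61 and both were above WT in none of 15. The 18 genes separated in enterocyte-like cells became 74 at a log2 difference of at least 0.5, and 22 to 28 when a cKO library was left out. TMM scaling put the median of all genes at -0.00052 in place of -0.013.

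The differences in mean bin were small and did not hold. For Akp3 the value of -0.016 became -0.038 with 10 bins, 0.0091 without Scrublet doublets and 0.030 with wider cell limits (500 genes or more, mitochondrial UMIs of 25% or less). For Alpi, -0.038 became 0.0016 without integration and -0.00058 with the wider cell limits. For Tmprss15, -0.067 became -0.092 with 10 bins, -0.024 after removal of the top 5% by doublet score, 0.024 without Scrublet doublets and -0.0027 with the wider limits. The cause was not tested. No paired analysis was possible because the sample labels give no pairing between Arid3a cKO and WT mice. A single WT library and the few Tmprss15 UMIs limit what these data can show.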
